A study of Mus musculus with 8 samples.

Results

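The 7 genes described here, Hmgcs1, Idi1, Fdps, Sqle, Lss, Cyp51 and Dhcr7, encode enzymes of cholesterol synthesis, and were read on expression arrays labelled as mouse spleen as 7 of 24171 named genes. They were chosen by name: every feature of the array that carries one of these gene names was taken, 11 of 44170 features in all, and the brightest feature over the 8 arrays stands for each gene. The arrays hold total RNA of 4 miR-155 knockout mice, named Mim1-5, Mim1-6, Mim2-2 and Mim2-3, and of 4 wild-type mice, named WT-1 to WT-4. Each genotype has 2 animals labelled male (Mim2-2 and Mim2-3, WT-2 and WT-4) and 2 labelled female (Mim1-5 and Mim1-6, WT-1 and WT-3), so among the knockout mice the labelled sex and the prefix of the animal's name cannot be told apart. The comparison asks which transcripts differ in the spleen when this microRNA is missing. Strain, age, housing and the extent of the deletion are not stated in the labels.

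Cholesterol is built from acetyl-CoA through the mevalonate pathway, which runs from HMG-CoA to the isoprenoid farnesyl pyrophosphate and then through squalene and lanosterol to cholesterol. The genes of the pathway are known to be switched on together by SREBP transcription factors, which the proteins Scap and Insig hold back in the endoplasmic reticulum while sterol is plentiful. In lymphoid tissue the pathway is known for supplying membrane to dividing cells, and in the lactating mammary gland for supplying milk lipid.

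Median intensity lay between 112.1 and 119.1 on the linear scale over the 8 arrays, and the random probes that served as background read log2 4.94 to 5.24. The arrays of Mim2-2 and Mim2-3 stood apart, with correlations of 0.811 to 0.877 with the other 6 arrays, which correlated with each other at 0.911 to 0.943. The X inactivation transcript Xist averaged log2 9.95 on the arrays labelled male and 10.13 on those labelled female, and the Y-linked gene Ddx3y averaged 7.76 and 7.82 in that order of labels, so these genes did not separate the labelled sexes (exact permutation p = 0.8 and 0.914). All 10 B cell markers and all 8 T cell markers were above the random probes on all 8 arrays. So were 11 of 15 markers of mammary epithelium, a cell type that a spleen is not known to hold. Of all named genes 15827 of 24171 were, so the count of mammary markers is close to that of genes in general. The mean log2 intensity of the mammary markers was 8.19 to 10.23 on knockout arrays and 10.77 to 11.03 on wild-type arrays. The milk protein gene Csn2 read log2 8.22 to 13.90 on knockout arrays and 14.90 to 15.41 on wild-type arrays. Not every marker was as bright: Wap read 4.58 to 7.04 on knockout and 5.69 to 7.93 on wild-type arrays. The knockout mean was below that of wild type for 14 of the 15. Krt19 was the 1 above, at 5.77 to 9.05 on knockout and 4.76 to 5.71 on wild-type arrays. The brightness of milk protein genes such as Csn2 puts the tissue label in doubt, and spleen is used below as the label only.

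The sequences below are from RefSeq, promoters in build GRCm38.p6. The mature miR-155-5p, on chromosome 16 from 84714143 to 84714165 on the plus strand, is shown because its gene is what the knockout mice are labelled to lack, and its capitals mark the seed, bases 2 to 8. Windows of 300 bases, 250 before and 50 after the annotated start, were given for 5 of the 7 genes, and not for Sqle and Fdps. The windows of 3 genes are shown, picked by their values on the arrays, though none of the 7 genes passed in limma for genotype or for a difference between the labelled sexes. Hmgcs1 had genotypes that did not overlap (7.34% of all features), and the pattern of Cyp51 over the arrays was the nearest to that of Hmgcs1. Lss had arrays that did not overlap within either labelled sex, with knockout lower in males and higher in females (3.33% of features). A difference below 0 in males and above 0 in females was shared by 5 of the 7 genes, Lss among them (21.6% of features). A link between the windows and the values on the arrays was not tested. Capitals mark matches on either strand to TCACNCCAC, a form of the sterol regulatory element that SREBP factors bind, to CCAAT, the motif of NF-Y, and to GGGCGG, the motif of SP1, and no matches overlap.
mmu-miR-155-5p: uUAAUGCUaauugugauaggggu
Hmgcs1, chr13:119690101-119690400, plus strand: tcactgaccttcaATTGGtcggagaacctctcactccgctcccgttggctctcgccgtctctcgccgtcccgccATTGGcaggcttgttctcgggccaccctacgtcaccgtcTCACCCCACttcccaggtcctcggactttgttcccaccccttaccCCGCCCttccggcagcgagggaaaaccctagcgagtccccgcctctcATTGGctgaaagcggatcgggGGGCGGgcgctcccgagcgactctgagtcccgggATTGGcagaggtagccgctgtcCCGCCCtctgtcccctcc
Cyp51, chr5:4104648-4104947, minus strand: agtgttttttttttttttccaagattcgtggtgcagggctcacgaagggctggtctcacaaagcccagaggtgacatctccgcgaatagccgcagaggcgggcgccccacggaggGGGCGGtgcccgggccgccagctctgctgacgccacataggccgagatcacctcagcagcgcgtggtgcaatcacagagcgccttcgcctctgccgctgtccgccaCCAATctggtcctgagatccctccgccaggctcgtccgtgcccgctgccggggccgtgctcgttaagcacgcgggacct
Lss, chr10:76531355-76531654, plus strand: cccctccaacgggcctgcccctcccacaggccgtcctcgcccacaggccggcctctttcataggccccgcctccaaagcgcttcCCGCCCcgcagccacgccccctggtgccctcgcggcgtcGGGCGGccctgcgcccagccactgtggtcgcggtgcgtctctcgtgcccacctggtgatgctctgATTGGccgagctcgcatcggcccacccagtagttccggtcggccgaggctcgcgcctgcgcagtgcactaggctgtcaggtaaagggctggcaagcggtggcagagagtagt

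The form TCACNCCAC of the sterol element was found in 1 of the 7 windows of these genes and in 1.24% of all 32851 promoter windows. In that window, of Hmgcs1, TCACCCCAC began 137 bases before the start. Other forms were not searched, so a window without a match is not shown to lack a sterol element. CCAAT was found in 5 of the 7 windows, and in 37.4% of all windows. GGGCGG was found in 6 of the 7, and in 35.7% of all windows. The 7 windows belong to 5 genes, since Dhcr7 has 3 of them. A match describes letters of the window and is not a binding site measured here.

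None of the 7 genes passed between knockout and wild-type spleens. At an adjusted p under 0.05 in limma, fitted over all features with labelled sex as a term, 0 of 7 genes passed (0.0% of 44170 features), and at an unadjusted p under 0.05 also 0 of 7 (13.9% of features, 6.98% higher and 6.88% lower in knockout). The difference, knockout minus wild type on the log2 scale, was above 0 for Hmgcs1, Cyp51 and Idi1 and below 0 for Fdps, Lss, Dhcr7 and Sqle. Its median was -0.26 over the 7 genes and 0.03 over all features. The knockout animals differed widely among themselves in these genes. The array of Mim1-6 was the highest of the 8 for 6 of the 7 genes, and that of Mim2-3 the lowest for 5. Over all named genes these arrays were the highest in 10.3% and the lowest in 16.7% of cases. In bulk tissue, fewer cells of a type and less RNA per cell cannot be told apart.

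**Figure D1:**
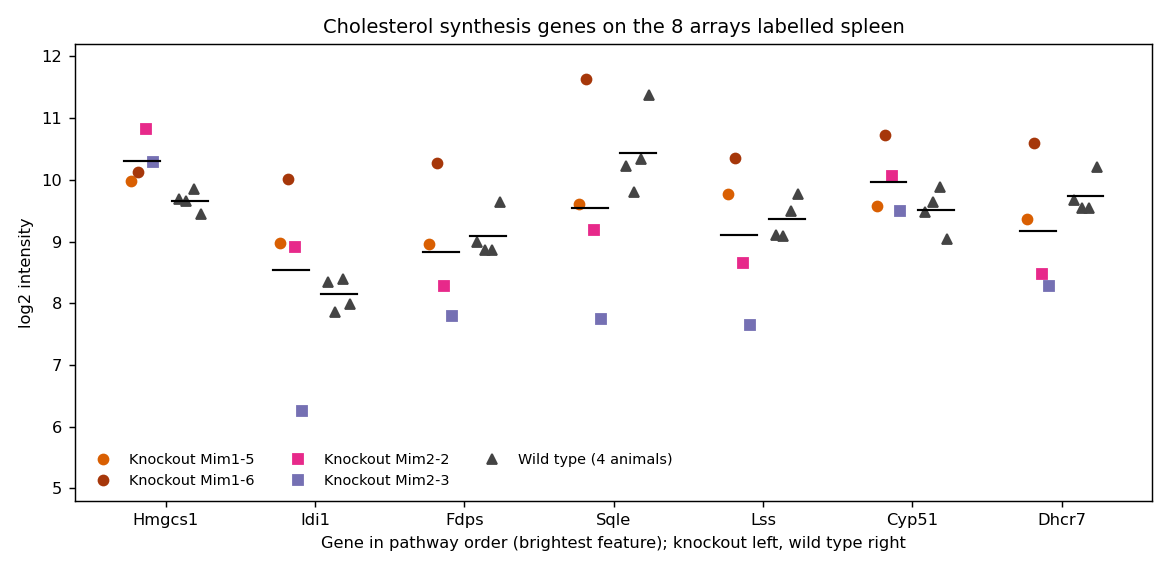
Log2 intensity of the brightest feature of each gene, in pathway order, with 1 point per animal and a line at each group's mean (n = 4 per genotype, knockout left of wild type). Mim1-6 is the highest knockout array for every gene but Hmgcs1, and Mim2-3 is the lowest array for Idi1, Fdps, Sqle, Lss and Dhcr7.

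Hmgcs1, the synthase that makes HMG-CoA at the entry of the pathway, was the 1 gene whose genotypes did not overlap. It read log2 9.98 (Mim1-5), 10.12 (Mim1-6), 10.83 (Mim2-2) and 10.28 (Mim2-3), against 9.69 in WT-1, 9.65 in WT-2, 9.86 in WT-3 and 9.45 in WT-4. Every knockout array lay above every wild-type array, by a narrow margin between Mim1-5 and WT-3. The means were 10.30 ± 0.37 in knockout and 9.66 ± 0.17 in wild-type spleens (SD, n = 4 each), a 1.56-fold difference. The log2 difference of 0.64 ± 0.30 (SE) did not pass in limma (adjusted p = 0.375). Exact permutation (two-sided, 70 ways to arrange the arrays) gave p = 0.0286, the smallest it can give. Groups that do not overlap were found for 1 of 7 genes and for 7.34% of all features, and with the knockout arrays higher for 4.7%. Hmgcs1 has 2 further features, whose differences were 0.62 and 0.39 and whose genotypes overlapped. In MM9 its features map to a piece of chromosome 13 without a fixed place, the brightest from 114709 to 132325.

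Idi1, the isomerase that turns isopentenyl pyrophosphate into dimethylallyl pyrophosphate (chromosome 13, 8885230 to 8891616 in MM9), read log2 8.97 (Mim1-5), 10.01 (Mim1-6), 8.91 (Mim2-2) and 6.26 (Mim2-3), against 8.35 in WT-1, 7.86 in WT-2, 8.40 in WT-3 and 7.99 in WT-4. Of the 4 knockout arrays, 3 lay above every wild-type array and Mim2-3 lay below all of them. The difference was 0.39 ± 0.58 (SE, adjusted p = 0.794 in limma), and it was 0.0055 without Mim2-2, 0.04 without Mim1-6 and 1.06 without Mim2-3. The knockout SD was 1.60 and the wild-type SD 0.27.

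Fdps makes farnesyl pyrophosphate, the last step shared by sterols and other isoprenoids (chromosome 3, 88897509 to 88905812). It read log2 8.97 (Mim1-5), 10.27 (Mim1-6), 8.28 (Mim2-2) and 7.79 (Mim2-3), against 8.98 in WT-1, 8.87 in WT-2, 8.87 in WT-3 and 9.63 in WT-4. The Mim2 arrays lay below the wild-type arrays, Mim1-6 lay above them, and Mim1-5 lay among them. The difference was -0.26 ± 0.48 (SE, adjusted p = 0.837 in limma). It had the opposite sign without Mim2-3 (0.03) and without WT-4 (0.08). The other feature of Fdps was dim, was under the random probes in Mim2-2, and differed by -0.48.

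Sqle, the epoxidase that puts oxygen on squalene (chromosome 15, 59146646 to 59162748), had the widest range over the knockout arrays. It read log2 9.61 (Mim1-5), 11.63 (Mim1-6), 9.18 (Mim2-2) and 7.75 (Mim2-3), against 10.22 in WT-1, 9.79 in WT-2, 10.33 in WT-3 and 11.37 in WT-4. The knockout arrays spanned 3.88 and enclosed the wild-type arrays, which spanned 1.58. The difference of -0.89 ± 0.68 (SE) did not pass (adjusted p = 0.581 in limma), and the other feature of the gene gave -0.96. It was -1.54 without Mim1-6, -0.36 without Mim2-3 and -0.33 without WT-4.

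Lss, the cyclase that closes the ring system to give lanosterol (chromosome 10, 75994371 to 76016679), read log2 9.76 (Mim1-5), 10.35 (Mim1-6), 8.65 (Mim2-2) and 7.64 (Mim2-3), against 9.11 in WT-1, 9.09 in WT-2, 9.49 in WT-3 and 9.77 in WT-4. The Mim2 arrays lay below all wild-type arrays, Mim1-6 lay above all of them, and Mim1-5 lay just under WT-4. Its overall difference was -0.26 ± 0.48 (SE, adjusted p = 0.834 in limma), and it had the opposite sign without Mim2-3 (0.14) and without WT-4 (0.08).

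Cyp51, the demethylase that acts on lanosterol (chromosome 5, 4082114 to 4104424), varied less over the knockout arrays (SD 0.57) than the genes above other than Hmgcs1. It read log2 9.57 (Mim1-5), 10.72 (Mim1-6), 10.06 (Mim2-2) and 9.50 (Mim2-3), against 9.48 in WT-1, 9.65 in WT-2, 9.89 in WT-3 and 9.04 in WT-4. Mim1-6 and Mim2-2 lay above the wild-type arrays and the other knockout arrays lay among them. The difference was 0.45 ± 0.35 (SE, adjusted p = 0.584 in limma), and without Mim1-6 it was 0.22.

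Dhcr7, the reductase that turns 7-dehydrocholesterol into cholesterol (chromosome 7, 151016155 to 151034311), read log2 9.37 (Mim1-5), 10.59 (Mim1-6), 8.47 (Mim2-2) and 8.28 (Mim2-3), against 9.67 in WT-1, 9.54 in WT-2, 9.54 in WT-3 and 10.21 in WT-4. Mim1-6 was above the wild-type arrays and the other 3 knockout arrays were below them. The difference was -0.56 ± 0.46 (SE, adjusted p = 0.606 in limma). It was -0.99 without Mim1-6, -0.33 without Mim2-3 and -0.24 without WT-4.

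The SD over the knockout arrays was larger than over the wild-type arrays for 7 of 7 genes, with medians of 1.08 and 0.33 on the log2 scale. Over all features the knockout SD was the larger in 64.8%, with medians of 0.60 and 0.44. It was also the larger for 9 of 9 fatty acid synthesis genes (medians 1.72 and 0.28) and for 14 of 15 other enzymes of the pathway. Among genes of the SREBP machinery it was the larger for 4 of 7. With each gene set to a mean of 0 over the arrays, the 7 genes averaged 1.14 in Mim1-6 and -1.17 in Mim2-3. They averaged 0.07 in Mim1-5 and -0.19 in Mim2-2, and between -0.18 and 0.25 on the wild-type arrays. The genes most alike over the 8 arrays were Dhcr7 and Fdps, whose centred values differed by a root mean square of 0.17 on the log2 scale. Fdps and Lss followed with 0.29, and Dhcr7 and Lss with 0.35. Hmgcs1 was farthest from the mean of the other 6 (0.92) and nearest to Cyp51 (0.43), and the least alike pair was Hmgcs1 and Sqle (1.40).

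Outside the lists used here, the genes whose values over the 8 arrays were most like the mean of the 7 included Ppif, Nudcd1, Farsb and Tmem131, with root mean square differences of 0.17, 0.17, 0.24 and 0.28. They were taken from 6131 genes above the random probes on all 8 arrays and with an SD of at least 0.64, that of the mean of the 7. Ppif, a mitochondrial peptidyl-prolyl isomerase, read log2 9.01 (Mim1-5), 10.10 (Mim1-6), 8.51 (Mim2-2) and 7.77 (Mim2-3), against 8.79, 9.10, 9.20 and 9.34 in WT-1 to WT-4. As in the mean of the 7 genes, Mim1-6 was its highest array and Mim2-3 its lowest. That follows from how Ppif was picked and is not a separate result.

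The differences within the labelled sexes had opposite signs for 5 of the 7 genes. In labelled males the knockout minus wild type difference was below 0 for Sqle, Dhcr7, Lss, Fdps and Idi1, and in labelled females it was above 0 for all 7, with medians of -1.22 in males and 0.47 in females. A difference below 0 in males and above 0 in females was found in 5 of 7 genes and in 21.6% of all features. Lss differed by -1.28 ± 0.48 in labelled males and by 0.75 ± 0.48 in labelled females (SE, 2 arrays per genotype in each), and it was the 1 gene of the 7 whose arrays did not overlap within either sex and lay on opposite sides in the sexes. That pattern, knockout lower in males and higher in females, was found in 3.33% of all features. Both Mim1 arrays were above both wild-type arrays labelled female for 3 of 7 genes, Hmgcs1, Idi1 and Lss (18.9% of features). Both Mim2 arrays were below both wild-type arrays labelled male for 4 of 7, Sqle, Dhcr7, Fdps and Lss (24.3% of features). Sqle differed by -2.12 in males and 0.34 in females, Dhcr7 by -1.50 and 0.38 in that order of sexes, Fdps by -1.22 and 0.69, and Idi1 by -0.34 and 1.12. Hmgcs1 differed by 1.004 in males and 0.28 in females, and Cyp51 by 0.44 and 0.47.

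**Figure D2:**
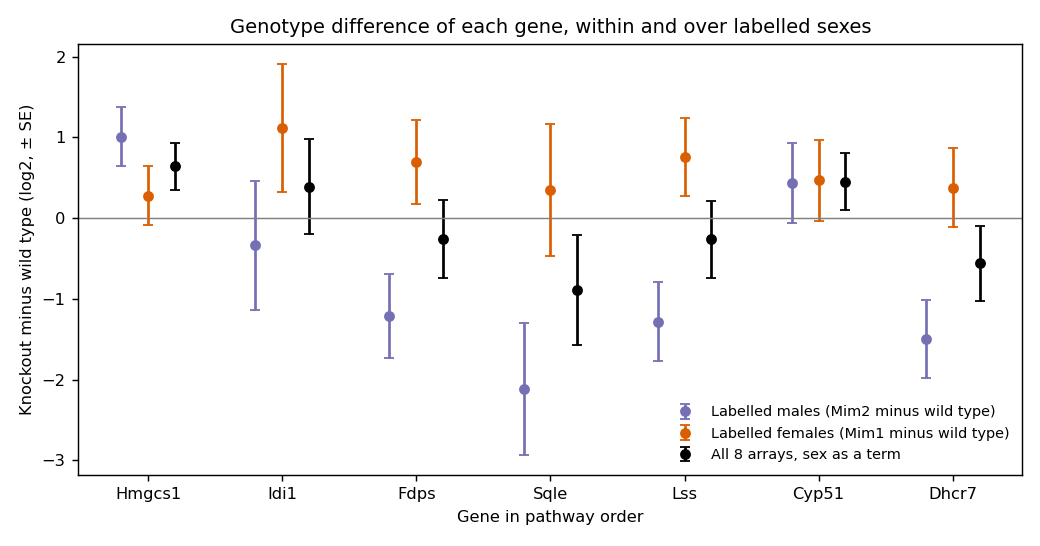
Knockout minus wild type difference on the log2 scale for each gene in pathway order, within labelled males, within labelled females and over all 8 arrays with labelled sex as a term; bars are ± 1 SE of limma. Sqle, Idi1, Fdps, Lss and Dhcr7 lie below 0 in labelled males and above 0 in labelled females.

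The difference between the labelled sexes did not pass for any gene. When genotype was allowed to act differently in each labelled sex, 0 of 7 genes passed at an adjusted p under 0.05 (0.0% of features) and 3 of 7, namely Lss, Dhcr7 and Fdps, had an unadjusted p under 0.05 (13.3% of features). Their interactions, male minus female, were -2.04 ± 0.69, -1.88 ± 0.69 and -1.91 ± 0.74 (SE), with adjusted p of 0.278, 0.308 and 0.329 in limma. Within labelled males 0 of 7 genes passed, where 4.24% of features did, with adjusted p from 0.118 for Dhcr7 to 0.835 for Idi1. Within labelled females 0 of 7 passed (0.0% of features). Sex, the name prefix and the standing apart of the Mim2 arrays cannot be told apart here. Without both Mim2 arrays, when the difference is that within labelled females, the median over the 7 genes was 0.47.

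Other gene lists also differed between the knockout arrays. The 9 measured markers of dividing cells, each set to a mean of 0, averaged 0.95 (Mim1-6), -0.60 (Mim1-5), -0.78 (Mim2-2) and -1.07 (Mim2-3), against 0.38 in WT-1, 0.19 in WT-2, 0.12 in WT-3 and 0.81 in WT-4. On average Mim1-6 and Mim2-3 were the highest and the lowest array for this list too, but gene by gene Mim1-6 was the highest array for 4 of 9, WT-4 for 4 and WT-3 for 1, and Mim2-3 was the lowest for 4 of 9. All 9 were above the random probes on all 8 arrays, as were 15827 of 24171 named genes. The mammary markers averaged 0.13 (Mim1-5), -0.46 (Mim1-6), -1.91 (Mim2-2) and -1.02 (Mim2-3), against 0.67 to 0.94 on the wild-type arrays, so they were not highest where the 7 genes were. Of the markers of hepatocytes, a main site of cholesterol synthesis in the body, 2 of 8 were above the random probes on all arrays. Their mean log2 intensity was 5.74 to 6.19 on knockout arrays and 5.34 to 6.02 on wild-type arrays, and Alb read 4.51 to 7.65 and 4.56 to 6.49. The part of these cells in the spread of the 7 genes was not tested.

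Fatty acid synthesis genes, which share SREBP control with cholesterol synthesis, followed another order of arrays. Averaged over 9 genes set to a mean of 0, they stood at 1.67 in Mim2-2, where the 7 cholesterol genes stood at -0.19, and at -0.30 in Mim1-6, where the 7 stood at 1.14. In Mim2-3 both lists were low, at -1.33 for fatty acid genes and -1.17 for the 7. The fatty acid synthase gene Fasn read log2 13.69 in Mim2-2, 10.51 in Mim1-5, 11.26 in Mim1-6 and 9.69 in Mim2-3, against 10.98 to 11.28 on the wild-type arrays. Markers of adipocytes averaged 2.44 in Mim2-2 and 2.16 in Mim2-3, against -1.06 and -0.80 in the other knockout animals and -0.77 to -0.60 in wild type. All 6 measured were above the random probes on all arrays, as were 15827 of 24171 named genes. The part of adipocytes in these values was not tested. Between genotypes 0 of 9 fatty acid genes passed and 1 had an unadjusted p under 0.05 (13.9% of features), with a median difference of 0.01. Scd2, Scd1, Me1 and Elovl6 had the smallest p, with differences of -1.08, -0.76, -0.83 and 0.70. The difference of Me1 was 0.10 without Mim2-3, that of Elovl6 was -0.17 without Mim2-2, and that of Scd1 was -0.27 without Mim1-6. Averaged over all its features, Elovl6 differed by 0.29.

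**Figure D3:**
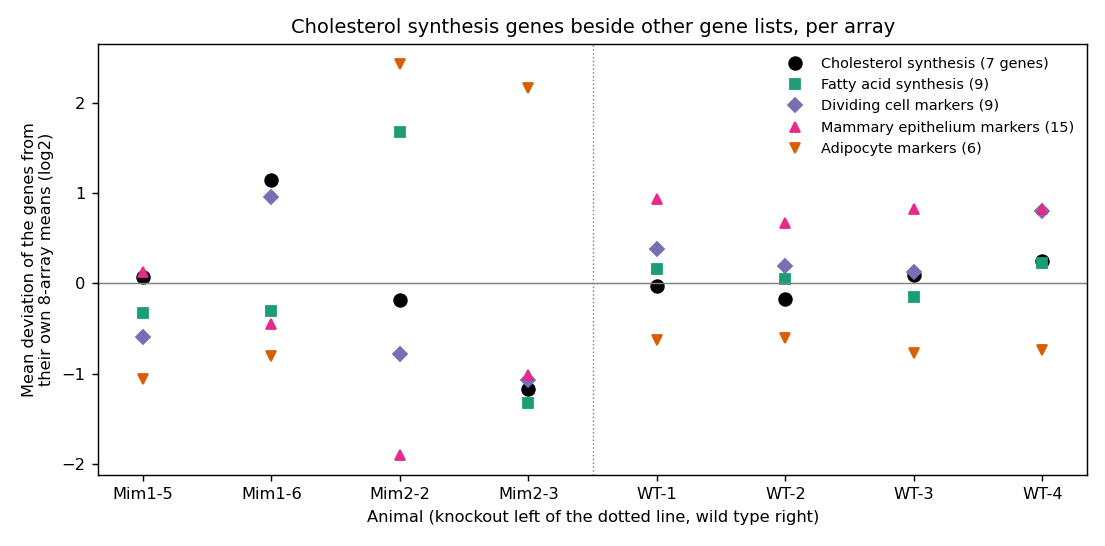
Mean deviation of the genes of 5 lists from their own means over the 8 arrays (log2), per animal, with the knockout arrays left of the dotted line. The 7 cholesterol synthesis genes are at 1.14 in Mim1-6 and -1.17 in Mim2-3 and between -0.19 and 0.25 elsewhere, fatty acid synthesis genes are highest in Mim2-2, and adipocyte markers are high in both Mim2 animals.

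The remaining enzymes of the pathway and its branches were split between the directions. Of 15 measured, 0 passed over all features and 0 had an unadjusted p under 0.05, with 7 differences above 0 and 8 below, and a median of -0.02. Ggps1, which makes the geranylgeranyl branch, differed by 0.77, the kinase gene Mvk by 0.71, and Hsd17b7, an enzyme of sterol demethylation, by 0.53. Their adjusted p in limma ran from 0.385 to 0.544. Mim1-6 was the highest array for 4 of the 15 enzymes, while Mim2-3 was the lowest for 6 of them and the highest for 5. Averaged over all features of the gene, Ggps1 differed by 0.44 and Mvk by 0.31, and without both Mim2 arrays Mvk differed by -0.11. Without Mim2-3 the difference was 0.41 for Mvk and 0.33 for Hsd17b7, and without WT-2 it was 0.46 for Mvk.

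Of the SREBP machinery, 0 of 7 genes passed and 2 had an unadjusted p under 0.05, both with a negative difference (13.9% of all features, 6.88% lower in knockout). The list's median difference was -0.52, and 0.06 without both Mim2 arrays. Srebf1, which encodes the SREBP factors that lean toward fatty acid genes, read log2 12.71 (Mim1-5), 11.24 (Mim1-6), 10.03 (Mim2-2) and 10.51 (Mim2-3), against 13.07 in WT-1, 13.27 in WT-2, 12.54 in WT-3 and 11.75 in WT-4. Mim1-5 lay among the wild-type arrays and the other 3 knockout arrays lay below them. The difference was -1.53 ± 0.50 (SE, adjusted p = 0.292 in limma). Scap, the sterol-sensing escort of SREBP, differed by -0.81 ± 0.35 (adjusted p = 0.357), Mbtps2, a protease that frees the factors, by -0.57, and Insig2, a retention protein, by 0.42. Averaged over all features of the gene, Mbtps2 differed by -0.23 and Insig2 by 0.05. Without Mim2-3 the difference was -0.50 for Scap and -0.31 for Mbtps2. Srebf2, the factor most tied to cholesterol genes and named for that role, read 9.46 to 10.71 in knockout and 9.44 to 10.34 in wild-type spleens and differed by 0.12 ± 0.37 (adjusted p = 0.905).

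Among genes of cholesterol uptake and transport, 0 of 8 passed and 1 had an unadjusted p under 0.05 (13.9% of all features), with a median difference of -0.23. This was Npc1, whose protein carries cholesterol out of lysosomes. It read log2 9.16 (Mim1-5), 8.997 (Mim1-6), 6.80 (Mim2-2) and 7.17 (Mim2-3), against 9.02, 9.21, 9.59 and 9.65 in WT-1 to WT-4. The Mim2 arrays were far below the wild-type arrays, and the Mim1 arrays were close to WT-1. The difference was -1.34 ± 0.46 (SE, adjusted p = 0.301 in limma) over all arrays, and -0.58 averaged over its 2 features. Within labelled males the brightest feature of Npc1 differed by -2.45, which passed (adjusted p = 0.0264 in limma, 4.24% of features), and within labelled females by -0.23. The interaction did not pass (adjusted p = 0.191 in limma). The differences within the sexes were not averaged over the 2 features. Npc2, the lysosomal partner of Npc1 in sterol export, differed by -0.33 with genotypes that did not overlap (7.34% of features).

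Of the genes of the oxysterol receptors LXR and of sterol efflux, 0 of 7 measured passed and 4 had an unadjusted p under 0.05, with differences above 0 for 2 and below 0 for 2 (13.9% of all features). The list's median was -0.12, or -0.37 without both Mim2 arrays. Ch25h, which makes the oxysterol that holds SREBP processing back, read log2 6.27 (Mim1-5), 7.37 (Mim1-6), 7.61 (Mim2-2) and 7.67 (Mim2-3), against 5.85 in WT-1, 5.62 in WT-2, 4.805 in WT-3 and 6.25 in WT-4. The groups did not overlap, with Mim1-5 and WT-4 nearly level. Its difference of 1.60 ± 0.37 (SE, adjusted p = 0.262 in limma) is inexact, since WT-3 lay under the random probes. Cyp27a1, another enzyme that makes oxysterols, differed by 0.90 ± 0.34 (adjusted p = 0.319) and its groups did not overlap either (7.34% of features). The receptor gene Nr1h2 differed by -0.95, or -0.61 averaged over its 2 features, and Mylip, a ubiquitin ligase and LXR target, by -1.01. Within labelled males the brightest feature of Nr1h2 passed, with -1.52 (adjusted p = 0.0491 in limma, 4.24% of features), against -0.38 in labelled females. Its interaction did not pass (adjusted p = 0.359 in limma). These differences within the sexes were not averaged over the 2 features either.

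**Figure D4:**
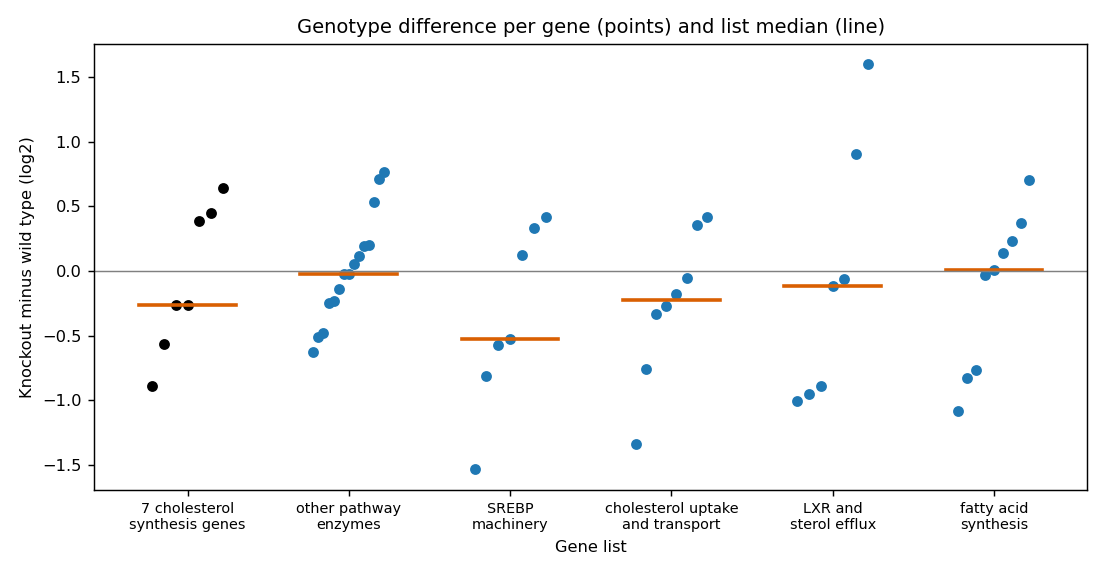
Knockout minus wild type difference on the log2 scale for each gene of 6 lists (points, sorted within a list) with the list's median (line). Points of every list lie on both sides of 0, with medians from -0.52 for the SREBP machinery to 0.01 for fatty acid synthesis.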

How the data were processed

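Total RNA of 8 samples given as spleen was labelled with one dye and read on NimbleGen expression arrays, 1 array per animal. The authors deposited, per array, a linear intensity per feature made with RMA, per the submitters' processing notes, which name it without a version. This method in general corrects background, normalizes between arrays and summarises probes. The standard error in the same deposited files (score) was not used. Almost all features rest on 3 probes (44155 of 44170). The log2 of the deposited intensity was taken with no further normalization and no filter, and the brightest feature stands for each gene, which for several genes moves the difference. Gene names are those of the array's annotation, with positions in MM9, and 21583 of 24203 Entrez numbers matched the reference. The random probes give the background, and arrays carry no count, so the number of arrays sets the precision, within the limits given in the closing section. The labels do not say more of the animals than given, and p-values from limma weigh a difference against the spread between these samples.

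All features were fitted together with limma (version 3.58.1, functions lmFit and eBayes, under R 4.3.3), with labelled sex as a term and Benjamini-Hochberg adjustment at 0.05. A second fit had the genotype by sex interaction. The code was tested on simulated data. Single genes were also tested by exact permutation over 70 arrangements. Named are the 7 genes, up to 4 genes with the smallest p per list, and the 5 most like the 7 over the arrays; some genes that fall under this rule are not reported here. Srebf2, Fasn, Csn2, Alb and the sex-linked genes are named outside it, after their values were seen. The genes and lists were chosen with earlier results of these data known. No block for slide or scan was fitted, since the tables used here name neither. Alternatives were the sex term, array weights, variance model, normalization, floor, filter, choice of feature, the series' value table, and leaving out arrays.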

Additional observations from a re-analysis of the deposited data

Results flagged for a closer look

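Fdps read log2 9.6343 in WT-4, while the other 3 wild-type arrays read 8.8691 to 8.9843. The gap was 0.8494 of the group's range, above the critical value of Dixon's test for 4 samples. It was 1 of 48 groups of 4 arrays checked, and such a value turns up by chance in about 1 in 20 groups.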

How the results depend on the processing

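None of the 7 genes passed under any alternative of the limma fit. Over all features no call was made in any of them except with trend and robust variance, which called 16. For Hmgcs1 (difference 0.64) the exact permutation p of 0.0286 is unadjusted and says the same as the lack of overlap, found in 7.34% of features, while limma gave p = 0.058 unadjusted and 0.375 adjusted. The median difference of the 7 genes was 0.4659 without both Mim2 arrays, and between -0.5848 and 0.1411 with 1 array left out at a time. Without both Mim2 arrays the sign was opposite for Sqle (0.344), Dhcr7 (0.3772), Fdps (0.6936), Lss (0.7541) and Mvk (-0.1053). With 1 array left out the difference ranged from -0.7142 to 0.08225 for Fdps, from -0.5848 to 0.1411 for Lss, from -1.594 to 0.1027 for Me1 and from -0.1736 to 1.444 for Elovl6. The interaction of Cyp51, close to 0, was 0.1822 with quantile normalization added. The causes were not tested, beyond the smaller number of arrays. No paired analysis was possible because the genotypes are different animals, and nothing in the labels says that the numbers in their names pair them. The precision is limited by 4 arrays per genotype, by the 2 knockout arrays that stand apart, and by labelled sexes that the sex-linked genes did not separate.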

Other observations

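The marker lists of other cell types leaned in different directions in knockout against wild type. Over all 8 arrays 0 of them passed after adjustment in limma (0.0% of features), while 13.9% of features had an unadjusted p under 0.05 and 23060 of 44170 had a difference above 0. B cell markers were above wild type for 9 of 10 genes (median difference 1.45, 9 with an unadjusted p under 0.05), T cell markers for 8 of 8 (0.85, 5 genes), macrophage markers for 7 of 8 (0.59, 2 genes) and adipocyte markers for 6 of 6 (1.02, 3 genes). Markers of the exocrine pancreas were above wild type for 6 of 7 (1.59, 6 genes), and hepatocyte markers for 4 of 8 (0.08, 1 gene). Of the pancreas markers 3 of 7 were above the random probes on all arrays (15827 of 24171 named genes). Mammary markers were below wild type for 14 of 15 (-1.68, 10 genes, and 1 gene above), dividing cell markers for 9 of 9 (-0.64, 1 gene) and erythroid markers for 7 of 7 (-0.65, 2 genes). Within labelled males, where 4.24% of features passed, 7 mammary, 3 B cell, 3 adipocyte, 1 pancreas and 1 dividing cell marker passed after adjustment. Within labelled females 0 did.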
